A study of Mus musculus with 40 samples.

Results

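The genes of oxidative phosphorylation were followed complex by complex in mice that carry Df(16)A, a deletion on 1 copy of mouse chromosome 16 that models the human 22q11.2 deletion. The members were every gene whose symbol on the array starts with Nduf, Sdha, Sdhb, Sdhc, Sdhd, Uqcr, Cox4, Cox5, Cox6, Cox7, Cox8 or Atp5, together with Cyc1. They came to 95 genes on 186 probe sets, of the 18193 genes named on the array. Complex I held 35 of them, complex II 4, complex III 9, complex IV 17 and complex V 17. Ndufa4l2 was counted with complex I by its prefix alone. Another 12 were assembly factors with the prefixes Ndufaf and Sdhaf, and Ndufa4, which has been placed with complex I and later with complex IV, was kept apart.

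The study measured total RNA of 2 brain regions, prefrontal cortex and hippocampus, with 10 heterozygous Df(16)A/+ mice and 10 wild-type littermates for each region. The sample titles do not say whether both regions came from the same mice. All were untreated C57BL/6 males aged 8 weeks, so both genotypes share strain, sex and age. Each of the 4 groups, Df(16)A/+ and wild type in each region, had 10 Affymetrix arrays, labelled as biological replicates. The deletion removes 1 copy of many genes at once, so no single deleted gene can be assigned a difference.

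Oxidative phosphorylation takes place in the inner mitochondrial membrane. Complex I and complex II pass electrons from NADH and succinate to coenzyme Q, complex III hands them to cytochrome c, and complex IV to oxygen. Complexes I, III and IV pump protons, and complex V, the ATP synthase, lets them back to make ATP. Neurons draw most of their ATP from this chain to hold their ion gradients and drive synaptic transmission. Complex II is coded wholly in the nucleus, whereas the other complexes also hold subunits coded by mitochondrial DNA, which the naming rule does not take in.

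The deposited values are on the log2 scale, and a difference of -0.13 is given below also as a percentage of wild type after conversion to the linear scale. A probe set was tested in a region if it was above 4 on that scale on at least 10 arrays there. This left 88 of the 95 genes in each region. Ndufa4l2, Ndufb4, Cox4i2, Cox6b2, Cox7b2 and Cox8c did not pass in either region, Cox8b failed in the prefrontal cortex and Cox6a2 in the hippocampus. A gene is called lower or higher where limma's moderated test gave an adjusted p under 0.05, with Benjamini-Hochberg adjustment over all probe sets tested. A gene with several probe sets was read from the brightest.

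Deleted genes were read first, as a check of the labels. Mrpl40, a deleted gene that codes for a mitochondrial ribosomal protein, stood at 36.6% (prefrontal) and 42.1% (hippocampal) of its wild-type signal, with no overlap between genotypes. Slc25a1, the deleted mitochondrial citrate carrier, stood at 42.5% and 43.6%. Dgcr8, a deleted gene for a cofactor of microRNA processing, stood at 60.3% and 61.9%, with ranges that overlapped in the hippocampus (highest mutant array 8.42, lowest wild-type array 8.37). Txnrd2, the deleted mitochondrial thioredoxin reductase, stood at 78.4% in prefrontal tissue (limma, adjusted p = 0.012), and at 95.6% in hippocampal tissue, where it was not called (adjusted p = 0.55) and its mean signal was low, 5.25 in wild type. Array processing was uneven. Among the prefrontal arrays, 3 wild-type arrays and 1 mutant array were hybridized in run 3, 7 and 5 in run 4, and 4 mutant arrays alone in run 5. The array lot split the genotypes further, because 6 wild-type arrays were of lot 2 and all 10 mutant arrays of lot 1. In the hippocampus run 2 held 9 wild-type and 2 mutant arrays, run 3 held the other 8 mutant arrays, and run 1 held 1 wild-type array. The regions appear to have been normalised apart, with 95th percentiles of 11.6 to 11.7 on the prefrontal and 10.9 to 11.1 on the hippocampal arrays, so levels are not compared between regions.

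In the prefrontal cortex, genes of every complex were lower in Df(16)A/+ mice, by a small amount. Of the 88 genes, 55 were called lower, which is 62.5% of them, against 15.7% of all 10991 genes tested. No gene was called higher, against 3.27% of all genes. The difference was below 0 for 86 of the 88, against 7250 of all 10991 genes, and its median was -0.13 against -0.04 over all genes. The members ranged from 80.7% to 104% of wild type. In 45 of the genes, a count taken without its share over all genes, all 10 mutant arrays lay below the wild-type mean. In 3 of them, Ndufs1, Atp5c1 and Atp5o, every mutant array lay below every wild-type array, which is 3.41% of the members against 0.955% of all genes. In bulk tissue, fewer cells of a type and less RNA per cell cannot be told apart.

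**Figure D1:**
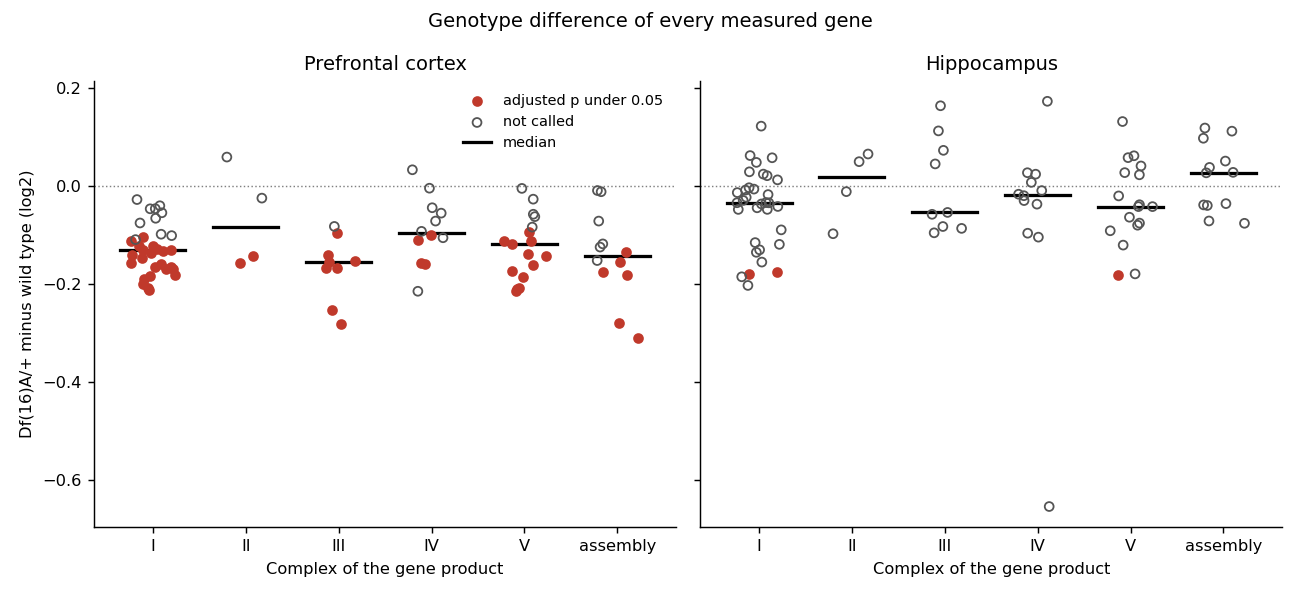
Difference between Df(16)A/+ and wild type on the log2 scale (vertical axis) for every measured gene (1 point each), by the complex of its product (horizontal axis), in the prefrontal cortex and the hippocampus. Filled red points have an adjusted p under 0.05 and black lines are medians. The prefrontal medians lie between -0.15 and -0.08, the hippocampal ones between -0.05 and 0.03.

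The mean over a complex's genes on each array shows the same shift. For complex III the wild-type arrays had a lowest, median and highest mean of 12.24, 12.32 and 12.36, and the mutant arrays of 12.07, 12.14 and 12.23. The 2 genotypes did not overlap. For complex I the wild-type arrays ran from 12.19 through a median of 12.24 to 12.29, and the mutant arrays from 12.03 through 12.12 to 12.19. These also did not overlap, by a margin under 0.01. The complex V means were 12.84, 12.90 and 12.95 in wild type and 12.70, 12.77 and 12.86 in the mutant, which overlapped at their edges. Those of complexes II and IV overlapped more widely, from 11.74 to 11.92 in wild type against 11.67 to 11.84 for complex II, and from 11.46 to 11.64 against 11.39 to 11.55 for complex IV. These means have no test of their own. The separation depended on the scaling. With each array centred on its median, the lowest wild-type and highest mutant means (less the wild-type mean) were -0.13 and -0.08 for complex III, -0.10 and -0.06 for complex I and -0.12 and -0.07 for the assembly factors, so the genotypes overlapped in all 3. The array medians ran from 3.67 to 3.88, below the cut of 4 used for testing, so this centring followed the level of dim probe sets.

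**Figure D2:**
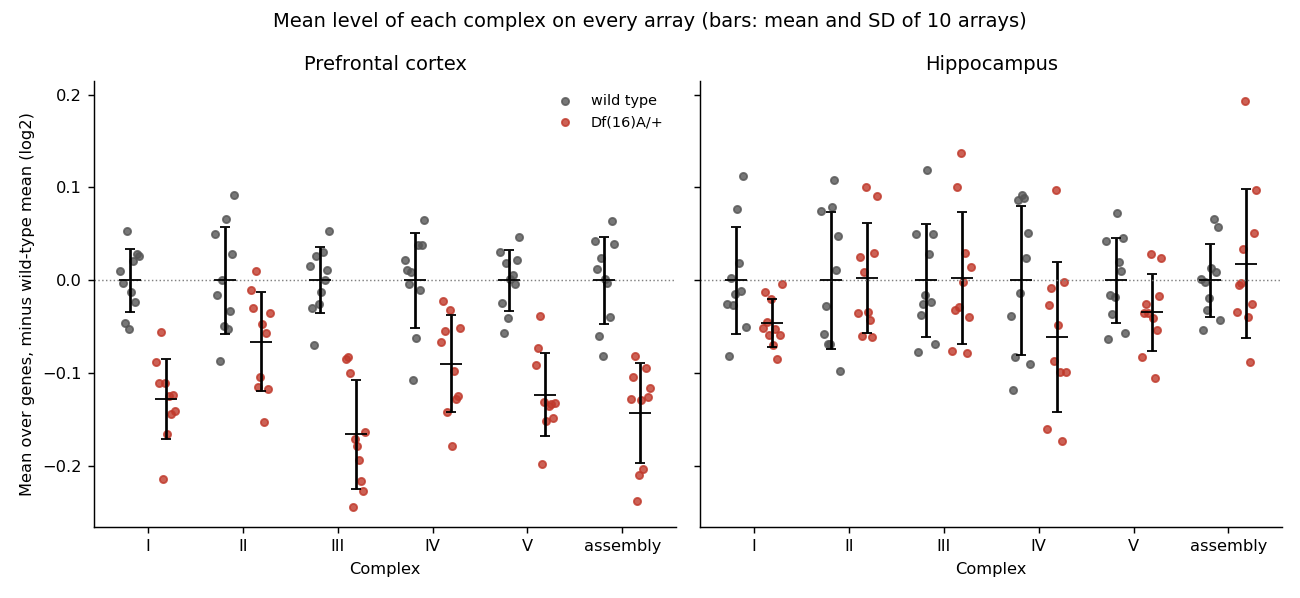
Mean log2 signal over the measured genes of each complex on every array, less the mean of the wild-type arrays of that region (vertical axis), by complex (horizontal axis). Points are arrays, 10 per group, and black bars are the mean and SD. In the prefrontal cortex the mutant arrays lie below all wild-type arrays for complexes I and III and for the assembly factors in the values as deposited, an order that centring each array on its median turned into overlap, and in the hippocampus the genotypes overlap for every complex.

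The promoters of the members are described because genes of this pathway are known to share sites for the same activators. Whether such sites bear on the differences between genotypes was not tested. RefSeq windows of 300 bases (250 before to 50 after the start of transcription, GRCm38.p6) were held for 78 of the 95 genes, as 83 windows. The letters searched, on both strands, were GCGCATGCG for NRF1, CCGGAAG for GABP, CAAGGTCA for ESRRA, AAGATGGCG for YY1 and GGGCGG for SP1, which are known or typical core sequences of these factors. The GABP letters were in 26.5% of the member windows against 11.6% of all 21263 windows of protein-coding genes, and the NRF1 letters in 10.8% against 2.35%. The YY1 letters were in 8.43% against 1.83%, the ESRRA letters in 4.82% against 1.34% and the SP1 letters in 48.2% against 46.2%. Among members called lower in the prefrontal cortex 18 of 53 windows held the GABP letters, and among members measured and not called 4 of 26, a difference that was not tested. A match is a description and not a shown binding site.

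Genes from 5 parts of the chain illustrate windows with and without such letters, all among those lower in the prefrontal cortex. Capitals mark every match, and overlapping matches run together. Only exact letters were counted, so a near match is not marked and a site spelled otherwise is not seen. The window of Ndufs3 (chr2:90904672-90904971, minus strand) holds the GABP and SP1 letters, that of Sdhaf3 (chr6:6955768-6956067, plus strand) the same kinds, and those of Uqcr11 (chr10:80406772-80407071, minus strand) and Atp5k (chr5:108434350-108434649, minus strand) the NRF1 and GABP letters. The windows of Cox5b (chr1:36691237-36691536, plus strand) and Atp5c1 (chr2:10080383-10080682, minus strand), the genes that stayed lower with run and lot in the fit, hold none of the 5 in these letters.
Ndufs3: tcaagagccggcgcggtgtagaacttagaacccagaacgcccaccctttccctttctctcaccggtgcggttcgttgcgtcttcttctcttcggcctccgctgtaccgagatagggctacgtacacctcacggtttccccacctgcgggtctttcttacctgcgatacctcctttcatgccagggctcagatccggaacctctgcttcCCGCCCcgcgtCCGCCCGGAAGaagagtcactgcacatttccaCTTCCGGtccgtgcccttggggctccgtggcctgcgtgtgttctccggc
Sdhaf3: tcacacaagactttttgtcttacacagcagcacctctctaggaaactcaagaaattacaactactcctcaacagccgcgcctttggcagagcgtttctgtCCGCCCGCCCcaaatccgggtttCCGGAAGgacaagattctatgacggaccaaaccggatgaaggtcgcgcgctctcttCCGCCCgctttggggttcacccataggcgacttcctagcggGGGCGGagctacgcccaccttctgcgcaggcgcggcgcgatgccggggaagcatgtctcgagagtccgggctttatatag
Uqcr11: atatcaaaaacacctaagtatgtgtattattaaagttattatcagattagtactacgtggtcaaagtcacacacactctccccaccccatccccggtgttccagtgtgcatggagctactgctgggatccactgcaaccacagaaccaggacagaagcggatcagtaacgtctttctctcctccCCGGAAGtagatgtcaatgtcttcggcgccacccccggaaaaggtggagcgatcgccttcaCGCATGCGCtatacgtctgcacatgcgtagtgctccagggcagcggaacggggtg
Atp5k: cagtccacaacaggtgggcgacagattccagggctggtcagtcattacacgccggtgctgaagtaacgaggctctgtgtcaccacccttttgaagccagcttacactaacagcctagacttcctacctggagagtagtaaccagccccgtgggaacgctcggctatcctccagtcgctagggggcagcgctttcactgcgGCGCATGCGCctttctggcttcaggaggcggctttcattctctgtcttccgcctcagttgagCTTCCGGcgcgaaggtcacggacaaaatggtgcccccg
Cox5b: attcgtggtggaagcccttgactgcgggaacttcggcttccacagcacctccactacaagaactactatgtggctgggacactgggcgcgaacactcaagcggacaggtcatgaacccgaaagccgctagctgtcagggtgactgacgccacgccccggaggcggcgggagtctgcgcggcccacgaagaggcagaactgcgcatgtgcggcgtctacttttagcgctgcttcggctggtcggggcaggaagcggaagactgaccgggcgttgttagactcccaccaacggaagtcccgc
Atp5c1: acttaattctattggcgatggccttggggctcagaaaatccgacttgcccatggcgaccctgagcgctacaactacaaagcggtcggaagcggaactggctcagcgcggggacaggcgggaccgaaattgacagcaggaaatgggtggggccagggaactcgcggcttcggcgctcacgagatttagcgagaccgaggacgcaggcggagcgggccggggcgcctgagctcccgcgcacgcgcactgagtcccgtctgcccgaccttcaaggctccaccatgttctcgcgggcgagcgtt

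Complex I had 23 of 33 measured genes lower in the prefrontal cortex and a median difference of -0.13. Its 6 measured subunits of the core that is conserved from bacteria (Ndufs1, Ndufs3, Ndufs7, Ndufs8, Ndufv1 and Ndufv2, which carry the flavin and iron-sulphur centres or frame them) were all called, with differences from -0.21 to -0.16. Of the 27 accessory subunits 17 were called, with a median of -0.12. This division was made after the values were seen, and the difference between its sides was not tested. Ndufs3, a core subunit of the arm that reaches into the matrix, read 12.12, 12.20 and 12.32 in wild type (lowest, median, highest) and 11.96, 12.03 and 12.13 in the mutant. The ranges met only at their ends. The difference was -0.17 ± 0.03 (SE, n = 10 arrays per genotype; limma, adjusted p = 0.0014).

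Ndufs1, the large core subunit with several iron-sulphur clusters, read 11.48, 11.55 and 11.65 in wild type and 11.24, 11.41 and 11.48 in the mutant. Every mutant array was below every wild-type array, but barely, with the highest mutant array at 11.484 and the lowest wild-type array at 11.485. The difference was -0.16 ± 0.03 (limma, adjusted p = 0.0031). Ndufs4, an accessory subunit of the NADH-oxidising part whose loss in mice gives a fatal encephalopathy, fell by 0.19 on the log2 scale to 87.7% of wild type (adjusted p = 0.0024). Ndufb10, an accessory subunit of the membrane arm, fell to 87.1% (adjusted p = 0.0025), and Ndufa2, an accessory subunit with a thioredoxin-like fold, to 89.3% (adjusted p = 0.0021). Ndufa8, an accessory subunit held by disulphide bonds, stood at 88.1% of wild type (adjusted p = 0.0041). Among the 10 genes of the complex that were not called, the smallest difference was that of Ndufc2, a membrane-arm subunit, at -0.03 ± 0.03 (adjusted p = 0.52).

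Complex II divided by subunit. Sdhb, the iron-sulphur subunit, read 12.14, 12.22 and 12.34 in wild type and 11.91, 12.07 and 12.19 in the mutant, a difference of -0.16 ± 0.04 (limma, adjusted p = 0.0076). Sdhd, a membrane anchor, read 10.85, 10.95 and 11.11 against 10.52, 10.84 and 10.93 and differed by -0.14 ± 0.05 (adjusted p = 0.039). The mutant minimum of Sdhd came from 1 array far below the other 9. The remaining subunits were not called. Sdha, the flavoprotein that oxidises succinate, read 12.58, 12.62 and 12.71 in wild type and 12.54, 12.60 and 12.71 in the mutant, ranges that nearly coincide (difference -0.02 ± 0.03, adjusted p = 0.62). Sdhc, the other anchor, differed by 0.06 ± 0.04 in the opposite direction (adjusted p = 0.25).

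All 4 measured assembly factors of complex II were called lower, beside 2 of the 8 of complex I. Sdhaf1, which helps to place iron-sulphur clusters in Sdhb, had the largest prefrontal fall of any member, to 80.7% of wild type. It read 8.30, 8.46 and 8.63 in wild type and 7.80, 8.11 and 8.45 in the mutant, and the ranges overlapped. Its difference was -0.31 ± 0.07 (limma, adjusted p = 0.0058). Sdhaf3, which acts with it, read 8.33, 8.47 and 8.66 in wild type and 7.95, 8.21 and 8.33 in the mutant, a difference of -0.28 ± 0.05 with all 10 mutant arrays below the wild-type mean (adjusted p = 6.03e-04). Sdhaf4, a chaperone of the flavinated Sdha subunit, fell to 88.2% (adjusted p = 0.0028), and Sdhaf2, needed to attach that flavin, to 91.2% (adjusted p = 0.032). The complex I factors called were Ndufaf3 at 88.6% (adjusted p = 0.0052) and Ndufaf7, a methyltransferase that acts on a core subunit, at 89.9% (adjusted p = 0.0086).

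Complex III had the highest share of the 5 complexes, with 8 of its 9 genes lower and a median difference of -0.15. Cyc1, the cytochrome c1 subunit that hands electrons to cytochrome c, read 12.58, 12.68 and 12.79 in wild type and 12.28, 12.35 and 12.61 in the mutant. Most mutant arrays were below the lowest wild-type array, with overlap at the top of the mutant range. It fell to 82.3% of wild type, a difference of -0.28 ± 0.05 (limma, adjusted p = 4.42e-04), the smallest prefrontal adjusted p of any member. Uqcrfs1, the Rieske iron-sulphur protein, read 11.53, 11.62 and 11.66 against 11.32, 11.46 and 11.56 (-0.15 ± 0.03, adjusted p = 0.0025). Uqcr10, a small subunit beside cytochrome c1, stood at 83.9% of wild type (adjusted p = 0.0034), and Uqcr11, another small subunit, at 89.1% (adjusted p = 0.0042). Uqcrq, a small subunit that sits on cytochrome b, differed by -0.15 ± 0.04 (adjusted p = 0.017). Uqcrb, the quinone-binding-protein subunit, was the gene not called, at -0.08 ± 0.04 (adjusted p = 0.15).

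Complex IV had 4 of 12 measured genes lower and a median of -0.10. Cox5b, a zinc-binding subunit on the matrix side, read 13.68, 13.76 and 13.82 in wild type and 13.51, 13.62 and 13.70 in the mutant. The ranges overlapped only at their ends, and the difference was -0.16 ± 0.03 (limma, adjusted p = 0.0015). The widely expressed isoforms divided. Cox6b1, which faces the intermembrane space, stood at 92.7% of wild type (adjusted p = 0.022) and Cox7a2, a transmembrane subunit, at 93.4% (adjusted p = 0.022). Cox7a2l, a relative of Cox7a2 that helps to join complexes III and IV, stood at 89.5% (adjusted p = 0.029). Cox4i1, the isoform of subunit IV found in most tissues, did not pass, at 95.2% (adjusted p = 0.055). Cox8a, another ubiquitous isoform, differed by -0.10 ± 0.05 (adjusted p = 0.18). For Cox6a1, the isoform of subunit VIa in brain and most other tissues, the wild-type arrays read 14.81, 14.90 and 14.99 and the mutant arrays 14.78, 14.89 and 14.97 (adjusted p = 0.94). The isoforms of heart and muscle were dim or not measured. Cox7a1 had a wild-type mean of 4.07 and differed by 0.03 ± 0.04 (adjusted p = 0.62), and Cox6a2 had a wild-type mean of 5.97 and differed by -0.21 ± 0.10 (adjusted p = 0.13). Ndufa4 stood at 95.4% of wild type and was not called (adjusted p = 0.12).

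Complex V had 12 of 17 genes lower and a median of -0.12. Atp5c1, the gamma subunit that turns inside the catalytic head, read 12.74, 12.82 and 12.98 in wild type and 12.49, 12.64 and 12.71 in the mutant. The genotypes did not overlap, and the difference was -0.21 ± 0.03 (limma, adjusted p = 5.82e-04). Atp5e, the epsilon subunit of the same rotor, fell to 86.5% of wild type (adjusted p = 0.0028). The 2 large subunits that form the catalytic head were not called. Atp5b, the catalytic beta subunit, read 13.92, 14.02 and 14.08 against 13.90, 13.97 and 14.11 (-0.03 ± 0.03, adjusted p = 0.60), and Atp5a1, the alpha subunit, stood at 96.1% (adjusted p = 0.15). Of the 9 genes for the stalk and membrane part 8 were called, among them Atp5k, the e subunit, at 88.7% (adjusted p = 0.0015), and Atp5j2, the f subunit, at 90.7% (adjusted p = 0.0021). Atp5o, the subunit that joins the stalk to the head, read 13.14, 13.20 and 13.29 in wild type and 12.84, 13.02 and 13.14 in the mutant. The genotypes did not overlap, by a margin smaller than the rounding shown.

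The 3 genes for the c subunit of complex V code for the same mature protein of the membrane ring and differ in their import sequences. Atp5g1 read 11.54, 11.60 and 11.77 in wild type and 11.35, 11.50 and 11.57 in the mutant (-0.14 ± 0.04, limma, adjusted p = 0.013). Atp5g2 read 11.45, 11.54 and 11.68 against 11.14, 11.35 and 11.56 (-0.21 ± 0.05, adjusted p = 0.0050). Atp5g3 read 13.92, 13.99 and 14.11 against 13.86, 13.98 and 14.11, and was not called at 99.7% of wild type (adjusted p = 0.94). Levels of different probe sets are not compared on these arrays, so the share of each gene in the c subunit message is not given.

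**Figure D3:**
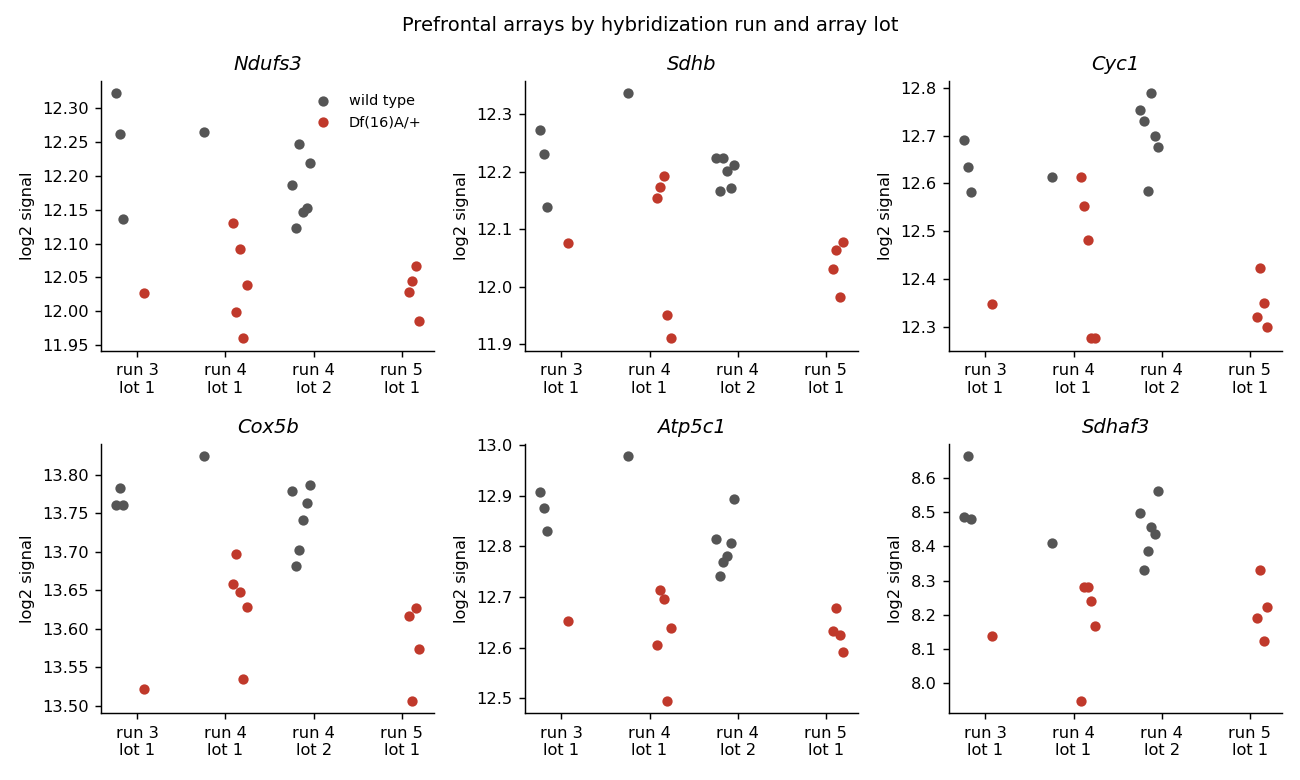
Log2 signal of 6 genes (vertical axes) on each prefrontal array, arranged by hybridization run and array lot (horizontal axis), with wild type in grey and Df(16)A/+ in red. Each point is 1 array. Within run 3 and within run 4 the mutant arrays of Atp5c1 lie below the wild-type arrays, and run 5 holds mutant arrays alone.

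Run and lot moved with genotype in the prefrontal cortex, and the counts fell when either was a term of the fit. With run as a block 35 genes were lower, 39.8% of the members against 8.05% of all genes. With lot as a block 15 were lower, 17% against 2.95%. With both, 2 were lower, Cox5b and Atp5c1, which is 2.27% against 0.873%. Cox5b then differed by -0.22 (limma, adjusted p = 0.031) and Atp5c1 by -0.29 (adjusted p = 0.015). The sizes of the differences changed less than the counts. The median over the 88 genes was -0.13 with no block, -0.12 with run, -0.13 with lot and -0.14 with both. In that last fit 86 were below 0, against 6187 of all 10991 genes. The median SE rose from 0.04 with no block to 0.07 with both. With both in the fit, the genotype term rests on the batches that hold both genotypes. These are run 3, with 3 wild-type arrays and 1 mutant array, and the lot 1 arrays of run 4, with 1 and 5. That 1 wild-type array of run 4, replicate 10, read highest of the wild-type arrays for Atp5c1 (12.98) and Cox5b (13.82). The sizes with both blocks therefore lean on few arrays.

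The batches that held both genotypes gave few calls. Within run 4, with 7 wild-type and 5 mutant arrays, 3 genes were lower, and within lot 1, with 4 and 10, 3 were lower. The shares over all genes in these single batches were not taken. The mean over all members, relative to the wild-type mean, ran from -0.05 to 0.02 on the 3 wild-type arrays of run 3 and was -0.12 on the mutant array of that run. In run 4 it was 0.04 on the wild-type array of lot 1, -0.06 to 0.03 on the 6 wild-type arrays of lot 2, and -0.20 to -0.06 on the 5 mutant arrays. In run 5 the 4 mutant arrays ran from -0.15 to -0.12. The wild-type arrays of the 2 lots overlapped only with those of run 3 included. Within run 4 the wild-type array of lot 1 lay above all 6 of lot 2. Lot 2 was used in run 4 alone, so run and lot cannot be told apart in that overlap. The part of run and lot in the individual calls beyond these values was not tested.

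**Figure D4:**
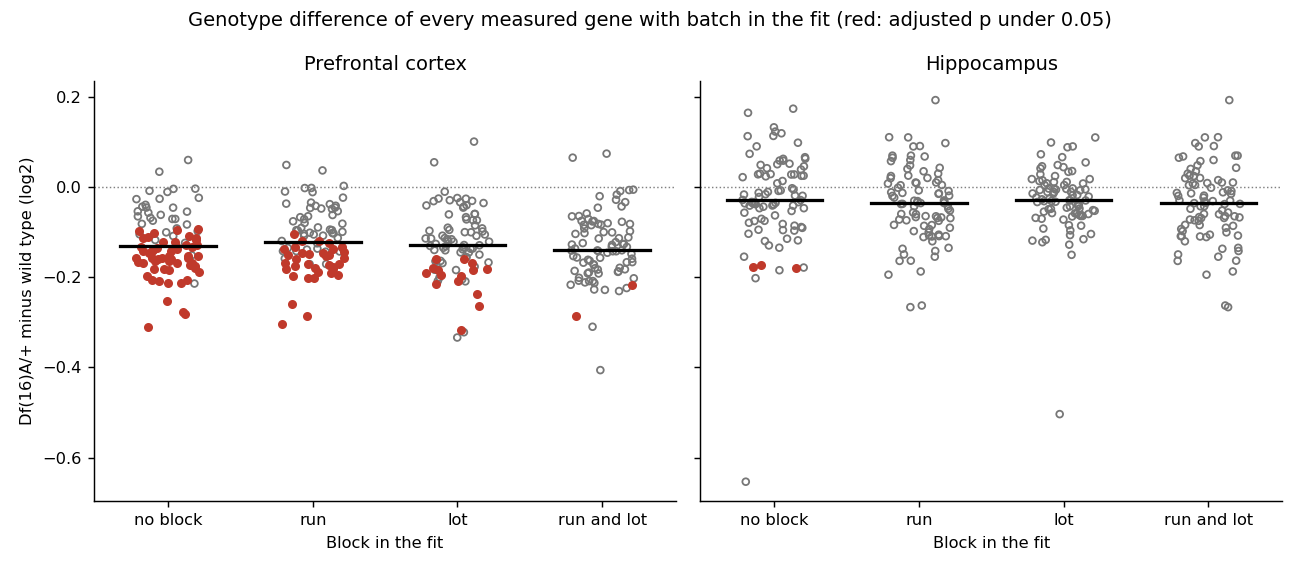
Difference between Df(16)A/+ and wild type on the log2 scale (vertical axis) for every measured gene (1 point each), with no block, run, lot or both in the fit (horizontal axis), in the prefrontal cortex and the hippocampus. Red points have an adjusted p under 0.05 and black lines are medians. The prefrontal medians stay between -0.14 and -0.12 while the genes called lower go from 55 to 2.

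Markers of several cell types were read beside these genes, and their part in the result was not tested. Of all genes tested in the prefrontal cortex 15.7% were lower and 3.27% higher. All 8 neuronal markers were measured in the prefrontal cortex, where none was lower and 2 were higher. Slc17a7, the vesicular glutamate transporter of excitatory neurons, was higher by 0.32 (limma, adjusted p = 0.0015), and by 0.27 with run and lot in the fit, where it was not called (adjusted p = 0.15). The mean of the neuronal markers ran from 12.98 to 13.10 on the wild-type and from 13.03 to 13.19 on the mutant arrays. Of the 7 astrocyte markers 2 were higher and none lower, with means of 12.13 to 12.39 in wild type and 12.21 to 12.45 in the mutant. Of the 7 mural and meningeal markers 2 were lower (8.20 to 9.00 against 7.96 to 8.94), of the 7 microglial markers 1 was lower (9.37 to 9.92 against 9.25 to 9.56), and of the 6 oligodendrocyte markers 1 was lower (11.09 to 11.41 against 10.90 to 11.34). The microglial share, 14.3%, and the oligodendrocyte share, 16.7%, were near that of all genes. Of the endothelial list 3 of 6 genes were measured and 2 were lower, the deleted gene Cldn5 and Slco1a4, an organic anion transporter of the blood-brain barrier, at -0.58 (adjusted p = 0.013). The endothelial means ran from 7.49 to 8.35 in wild type and from 6.66 to 7.81 in the mutant. They are over 3 genes whose differences ran from -1.62 to -0.17. The deleted Cldn5 is 1 of these genes, so the deletion itself enters the means. With run and lot in the fit Slco1a4 differed by -0.73 (adjusted p = 0.19). Among these lists 2 markers were then called, Cldn5 as lower and the astrocyte glutamate transporter Slc1a3 as higher by 0.32 (adjusted p = 0.047). The 3 prime to 5 prime difference of the beta-actin control probe sets, a sign of RNA quality, had a median of 1.25 in both prefrontal groups.

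The hippocampus showed much less. Of its 88 measured genes 3 were called lower, 3.41% against 1.55% of all 10822 genes tested, and none was higher, against 2.11%. With no adjustment, 17 were lower and 2 higher at a limma p under 0.05, counts taken without their share over all genes. The median difference was -0.03 against 0.00 over all genes, and 56 genes were below 0, against 5265 of all 10822. Centring each array on its median moved the members' median to 0.02, with 28 below 0 and none called. Quantile normalization gave -0.04, with 60 below 0 and 4 called lower. The hippocampal direction thus depended on the scaling, although the array medians, 3.55 to 3.94, lay below the cut of 4 used for testing. With run as a block no member was lower, against 0.129% of all genes, and only 2 mutant arrays then share a run with wild type. Some markers were called in the hippocampus too, beside the 1.55% of all genes lower and the 2.11% higher, and their part was not tested. Slc17a7 was higher by 0.38 (limma, adjusted p = 0.0011), the dentate gyrus marker Prox1 by 0.27 (adjusted p = 0.033) and the cortical marker Fezf2 by 0.21 (adjusted p = 0.042). The mural marker Pdgfrb differed by -0.47 (adjusted p = 0.033), the microglial marker C1qb by -0.43 (adjusted p = 0.042) and the deleted Cldn5 by -1.32 (adjusted p = 9.68e-04). Each was the only marker called in its list. The list medians were 0.02 for 8 neuronal, 0.03 for 6 hippocampal and 0.04 for 5 cortical markers. They were -0.08 for 7 mural and meningeal, 0.06 for 7 microglial and -0.14 for 3 endothelial markers. None of the 6 called markers passed with run and lot in the fit. The beta-actin 3 prime to 5 prime difference had a median of 1.31 and reached 1.65 in wild type, against 1.27 and 1.38 in the mutant.

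The 3 genes called in the hippocampus were among the 55 of the prefrontal cortex. Atp5k read 11.67, 11.74 and 11.85 in wild type and 11.37, 11.62 and 11.65 in the mutant. It did not overlap between genotypes, which held for 1.14% of the members and 0.166% of all genes, and differed by -0.18 ± 0.04 (limma, adjusted p = 0.018). Ndufa2 read 11.66, 11.74 and 11.96 against 11.47, 11.63 and 11.73, with overlap (-0.17 ± 0.05, adjusted p = 0.0385). Ndufb10 read 12.26, 12.41 and 12.61 against 12.03, 12.23 and 12.47, with overlap (-0.18 ± 0.05, adjusted p = 0.042). None of the 3 passed with run as a block. Of the genes with large prefrontal differences, Cyc1 read 11.98, 12.01 and 12.28 in the wild-type hippocampus and 11.78, 12.03 and 12.29 in the mutant, and was not called (-0.05 ± 0.06, adjusted p = 0.62).

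By complex, 2 genes were lower in complex I (median difference -0.03) and 1 in complex V (median -0.04). None was called in complex II (0.02), complex III (-0.05), complex IV (-0.02) or among the assembly factors (0.03). Several genes varied more among mutant arrays than among wild-type arrays. Cox8a had an SD of 0.32 among the mutant and 0.13 among the wild-type arrays (difference 0.17 ± 0.10, adjusted p = 0.32), and Uqcrb of 0.25 and 0.09 (0.16 ± 0.08, adjusted p = 0.21). The highest arrays of both genes were the 2 mutant arrays of lot 3, which read 12.54 and 12.54 for Cox8a and 13.46 and 13.61 for Uqcrb. The 5 mutant arrays of lot 1 in the same run 3 read 11.87 to 12.22 and 12.98 to 13.12. The complex III mean, relative to wild type, was 0.12 on the lot 3 and -0.03 on those lot 1 arrays. The part of the lot in the spread was not tested. Cox8b, an isoform of muscle and brown fat, read 4.67, 5.60 and 7.11 in wild type and 4.67, 4.78 and 5.71 in the mutant (adjusted p = 0.12). The choroid plexus markers also varied widely among hippocampal arrays, from 5.36 to 10.4 in wild type and from 5.85 to 10.1 in the mutant as means over 6 genes. Whether they vary with Cox8b was not tested.

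The difference between the regions was tested directly as the interaction of genotype and region, the hippocampal difference less the prefrontal one. Of 89 genes 12 were called, all above 0, which is 13.5% against 2.93% of all genes. The median was 0.09 against 0.05 over all genes, and 74 of the 89 were above 0, against 7216 of all 11325. The called genes came from complex I (5), complex III (2), complex V (2) and the assembly factors (3). The interaction of Sdhaf3 was 0.33 ± 0.07 (limma, adjusted p = 0.015), that of Ndufs1 0.29 ± 0.06 (adjusted p = 0.020) and that of Uqcrfs1 0.20 ± 0.04 (adjusted p = 0.020). Atp5c1 gave 0.23 ± 0.05 (adjusted p = 0.023) and Atp5g2 0.35 ± 0.08 (adjusted p = 0.028). In the 87 genes measured in both regions, 66 had a hippocampal difference nearer 0 and 53 were below 0 in both. With run and lot in the fit of all 40 arrays no interaction was called.

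**Figure D5:**
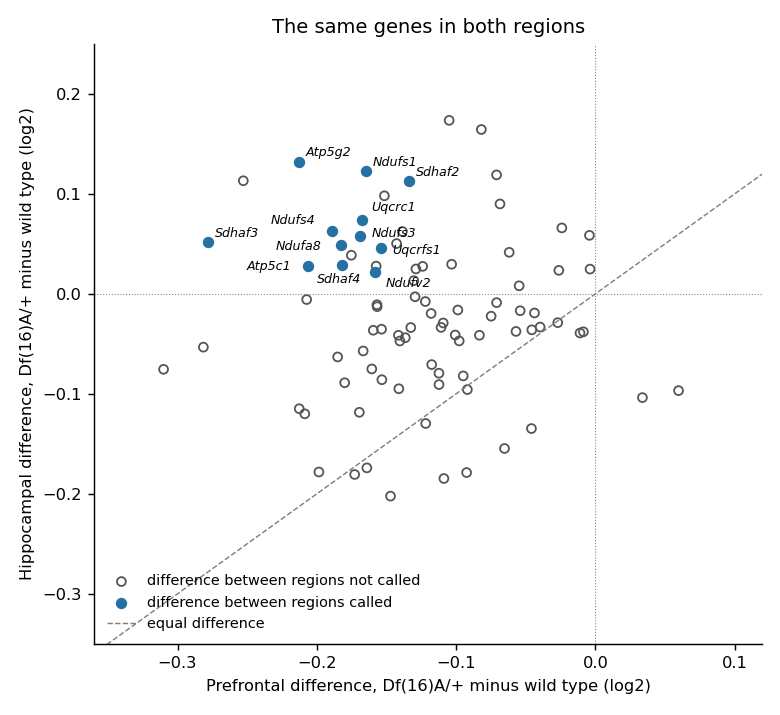
Prefrontal difference (horizontal axis) against hippocampal difference (vertical axis) between Df(16)A/+ and wild type on the log2 scale, 1 point per gene measured in both regions. Filled blue points are the 12 genes whose difference between regions has an adjusted p under 0.05, and the dashed line marks equal differences. All 12 lie above that line and above 0 on the vertical axis.

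Other genes of the pathway were read from lists in the same way. Of 31 measured genes for assembly and biogenesis beyond the members, 13 were lower and 1 higher in the prefrontal cortex (median -0.13). The lower ones are 41.9%, beside the 15.7% of all genes. Oxa1l, the insertase that puts subunits into the inner membrane, differed by -0.37 ± 0.10 (limma, adjusted p = 0.017), Uqcc2, an assembly factor of complex III, by -0.31 ± 0.05 (adjusted p = 8.79e-04), and Coa3, of complex IV, by -0.21 ± 0.03 (adjusted p = 2.05e-04). Acad9, an assembly factor of complex I related to fatty acid dehydrogenases, was higher by 0.20 ± 0.06 (adjusted p = 0.032). In the hippocampus 1 of the 31 was lower (3.23%, beside 1.55% of all genes), Cox17, a copper chaperone of complex IV, at -0.22 ± 0.05 (adjusted p = 0.017). Of 13 genes for mobile carriers and coenzyme Q synthesis 6 were lower in the prefrontal cortex (46.2%, median -0.11), with Cycs, cytochrome c, at -0.11 ± 0.03 (adjusted p = 0.029), and none in the hippocampus. Of 13 genes of the citric acid cycle 4 were lower (30.8%, median -0.08), with Fh1, fumarase, at -0.21 ± 0.04 (adjusted p = 6.97e-04), and none in the hippocampus. With run and lot in the fit no gene of these 3 lists was called in either direction, and the prefrontal medians were -0.10, -0.09 and -0.10.

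Of 12 regulators of these genes measured in the prefrontal cortex 2 were lower and 1 higher, 16.7% lower against 15.7% of all genes. Tfam, which packages and transcribes mitochondrial DNA, differed by -0.18 ± 0.04 (limma, adjusted p = 0.0058), and Polrmt, the mitochondrial RNA polymerase, by -0.28 ± 0.08 (adjusted p = 0.017). Tfb2m, a cofactor of that polymerase, was higher by 0.17 ± 0.04 (adjusted p = 0.014). Ppargc1a, a coactivator of mitochondrial biogenesis, differed by -0.08 ± 0.04 (adjusted p = 0.16) and Esrra, a nuclear receptor that it coactivates, by -0.01 ± 0.02 (adjusted p = 0.77). The median of the 12 was -0.03, and with run and lot in the fit it was 0.04 and none was called.

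Of 75 measured genes for mitochondrial ribosomal proteins, with the deleted Mrpl40 left out, 40 were lower in the prefrontal cortex (53.3% beside the 15.7% of all genes, median -0.14). Of 32 proteasome subunits 18 were lower (56.2%, median -0.11), and of 45 cytosolic ribosomal proteins 13 (28.9%, median -0.10). With run and lot in the fit 2 mitochondrial ribosomal, 2 proteasome and 0 cytosolic ribosomal genes were lower, beside 0.873% of all genes. In the hippocampus 1 of 75 (1.33%), 1 of 32 (3.12%) and 4 of 45 (8.89%) were lower with no block, beside 1.55% of all genes. None was lower there with run and lot. The differences between these lists and the members were not tested.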

How the data were processed

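RNA was extracted with Trizol and purified on RNeasy columns, per the labels' protocols. The deposited values are log2 signals that the authors computed with GCRMA, per the submitters' processing notes; its settings: not given in the sources used here. Run and lot come from the instrument records deposited with each array: a run is a set of arrays whose hybridization records lie within minutes of each other. Probe sets were named from the platform annotation, in which 34945 of 45101 carry 1 gene symbol, 932 several and 9160 none; 64 are controls. All 95 member symbols match RefSeq.

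The members and the other lists were chosen with earlier results of these data known. Each region was fitted on its own with limma 3.58.1 in R 4.3.3 (lmFit and eBayes, 2 groups of 10 arrays, no covariate), and the interaction was fitted on all 40 arrays. The tests were run over 21653 prefrontal and 21153 hippocampal probe sets and were checked on simulated data. SE is limma's moderated standard error. Genes named in the text are, for each complex, the 4 with the smallest prefrontal p and the 2 with the smallest hippocampal p, members called in the hippocampus, in the interaction (at most 10) or with run and lot in the fit, isoform groups and called assembly factors. Atp5o, Ndufc2, Ndufa4, Ndufs7, Ndufs8, Ndufv1, Ndufv2, Uqcrc1 and Ndufaf4, and the genes of other lists, were named after their values were seen. The number of arrays, 10 per group, limits the precision. Replicate numbers do not pair the samples: deviations of same-numbered arrays correlated at -0.17 to 0.34 (prefrontal) and -0.14 to 0.31 (hippocampal). Between the regions they correlated at -0.27 to 0.16 in wild type and -0.22 to 0.20 in the mutant. The interaction fit treated the 40 arrays as independent. The alternatives were other filters, scalings, variance models, blocks, single batches, probe set rules and leaving out each array.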

Additional observations from a re-analysis of the deposited data

Results flagged for a closer look

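In 12 members the genotype difference itself differed between regions by the interaction test (limma, hippocampal less prefrontal difference, all above 0). The values on the log2 scale were 0.33 for Sdhaf3, 0.20 for Uqcrfs1, 0.29 for Ndufs1, 0.23 for Atp5c1, 0.35 for Atp5g2, 0.23 for Ndufs3, 0.25 for Sdhaf2, 0.23 for Ndufa8, 0.21 for Sdhaf4, 0.25 for Ndufs4, 0.18 for Ndufv2 and 0.24 for Uqcrc1. The count depended on the scaling and the batches: 4 were called after quantile normalization, 19 after median centring and 0 with run and lot in the fit. Run and lot follow the genotypes differently in the 2 regions, and their part in these values cannot be told apart from genotype.

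Among 180 groups of 10 arrays tested for an array far from the rest, 6 had one, where chance gives about 1 in 20. In the prefrontal cortex these were Sdhd in mutant replicate 7, which read 10.52 against 10.75 for the next array, Atp5g1 in mutant replicate 4 (11.35 against 11.47) and Cox7a1 in wild-type replicate 7 (3.72 against 4.05). In the hippocampus they were Cyc1 in wild-type replicate 6 (12.28 against 12.12), Cox7a1 in mutant replicate 3 (4.67 against 4.78) and Uqcr11 in mutant replicate 3 (11.40 against 11.26).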

How the results depend on the processing

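The prefrontal count of 55 lower genes became 35 with run, 15 with lot and 2 with both as blocks, 3 within run 4, 3 within lot 1, and 90 lower and 1 higher with every probe set counted; leaving out each array in turn gave 50 to 58. The hippocampal count of 3 became 1 with no filter on low values, 0 with median centring, 10 with 1 fit of all arrays, 0 with run, lot or both as blocks and within run 2 or lot 1, and 5 lower and 1 higher with every probe set counted. Leaving out 1 array gave 1 to 5: 1 without wild-type replicate 3, 4, 5, 6, 9 or 10 or mutant replicate 3, 5, 7 or 9, and 5 without mutant replicate 1 or 2. Median centring, on array medians below the cut of 4 used for testing, moved the hippocampal median to 0.0059 for complex V and 0.075 for the assembly factors. The interaction count of 12 became 4 with quantile normalization, 19 with median centring and 0 with run and lot. The share of higher calls over all genes was 17.2% in the prefrontal cortex for the deposited values, 27.5% with quantile normalization and 10.2% with median centring; the hippocampal shares were 57.6%, 36.8% and 84.4%. With the replicate block 41 prefrontal genes were lower; 1 of 10 prefrontal and 2 of 10 hippocampal pairs correlated best within their own number. The causes of these changes were not tested.

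Signs turned for genes that passed in neither setting. In the prefrontal cortex these were Atp5g3 at 0.0016 with quantile normalization, Cox6a1 at 0.0024 with run, and Cox7a1 at -0.010 with lot and within lot 1 and -0.0091 with both. In the hippocampus, with run, with both blocks and within run 2 alike, the values were -0.098 for Atp5c1, -0.069 for Atp5g2, -0.11 for Cox5b, -0.057 for Ndufa8, -0.013 for Ndufs3, -0.060 for Ndufs4, -0.012 for Sdha, -0.090 for Sdhaf4, 0.065 for Sdhc and -0.11 for Uqcrb. With lot and within lot 1 they were -0.0052 for Atp5c1, -0.051 for Cox5b and -0.011 for Ndufa8, and quantile normalization gave -0.0031 for Sdhaf4.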

Other observations

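Probe sets of the same gene did not always go together. In the prefrontal cortex 46 members had several measured probe sets; in 41 of them all were below 0, in 15 all were called lower and in 4 the signs differed. In the hippocampus all were below 0 in 11 of 46 and the signs differed in 29. Ndufaf4, an assembly factor of complex I, had a probe set called higher in both regions. Its brighter probe set was not called (-0.01 ± 0.05 in the prefrontal cortex, limma, adjusted p = 0.90), while the other was higher there by 0.24 ± 0.07 (adjusted p = 0.027). The hippocampal value of that second probe set was 0.27 ± 0.08 (adjusted p = 0.045).

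A probe set annotated to ND5, a complex I subunit coded by mitochondrial DNA, lies outside the naming rule. It read 14.88 ± 0.06 in wild type and 14.92 ± 0.04 in the mutant prefrontal cortex (SD, n = 10; difference 0.03 ± 0.03 SE, limma, adjusted p = 0.41), and 14.08 ± 0.08 and 14.25 ± 0.15 in the hippocampus (difference 0.17 ± 0.06, adjusted p = 0.066).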
